A study of Mus musculus with 1111 samples.

Results

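The cathepsins are proteases that cut proteins inside the lysosome. The 10 cathepsin genes described here, Ctsa, Ctsb, Ctsc, Ctsd, Ctsf, Ctsh, Ctsl, Ctso, Ctss and Ctsz, were taken by symbol from tables that hold 35583 genes. All 10 were found. Another 13 cathepsin genes of the mouse were looked up in the same tables and were read in few cells or none.

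Cathepsins are made as inactive precursors, are tagged and sorted to the lysosome, and become active there as the compartment acidifies. They fall into an aspartic class (Ctsd), a serine class (Ctsa) and a cysteine class (the others), and the cysteine class is held in check by cystatins. In microglia, the resident macrophages of the brain, these enzymes digest what the cell takes up. Some, such as Ctss, also trim the proteins involved in antigen presentation.

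The cells were microglia isolated from the brains of 3-month-old mice, 20 hours after an injection of plasma proteins carrying the fluorescent dye NHS-Atto647N. Every cell, those of plasma none included, came from injected mice. Cells were sorted by the dye they held into plasma none, plasma low and plasma high, and each was made into 1 library with Smart-seq2, which reads whole transcripts. Strain, genotype and sex were not given in the sources used here. Each label carried a TH number from 1 to 3, whose meaning is not stated, and a well. Plasma none lay in well columns 1 to 8, plasma low in 9 to 16 and plasma high from column 17 on, so plate position and group cannot be told apart. Since the labels name no animals, a group counts as a single sample of cells and no test was made. Errors are the SD over the 3 TH numbers (n = 3), a spread between sets of wells and not between mice.

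After a filter of at least 50000 reads and 500 genes per cell, 987 cells remained, of which plasma none made up 35.06%, plasma low 35.56% and plasma high 29.38%. The 3 groups held 80757827, 98868490 and 102428398 reads. The median reads per cell were 217146 ± 53263, 250870 ± 94332 and 289558 ± 99803 in that order. The median mitochondrial share was 0.604% ± 0.0558, 0.819% ± 0.0851 and 0.975% ± 0.205, so both measures moved with the group. All 8 microglial markers had reads, and their summed level was 49829 ± 1725, 48931 ± 4653 and 49554 ± 4288 CPM (reads of a gene per 1000000 reads in genes). Single markers went in different directions. In plasma high against plasma none Tmem119 (log2 ratio -0.44 ± 0.15), Cx3cr1 (-0.18 ± 0.13) and P2ry12 (-0.065 ± 0.048) were lower in 3 of 3 TH numbers. Csf1r was higher in 3 of 3, at 0.31 ± 0.084, and the TH numbers of the other markers differed in sign. Of 8 markers of border-associated macrophages, which are also rich in lysosomes, Cd163, Lyve1, Pf4, Ms4a7 and F13a1 were at 0. The list summed to 134.8 to 185.9 CPM (plasma none), 139.6 to 146.1 (plasma low) and 102.8 to 226.3 (plasma high), nearly all from Stab1. The 8 neutrophil and 6 lymphocyte markers were at 0, and 2 of 6 monocyte markers had reads. The oligodendrocyte list summed to 21.2 to 68.9 CPM in plasma none and 56.4 to 83.4 in plasma high, with 1 cell of plasma high carrying at least 3 of its markers.

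The promoters of 8 of the 10 members were matched in the RefSeq table of GRCm38.p6, and Ctsb and Ctsh are named only. The windows searched held 250 bases before the start of transcription and 20 after it. Ctss and Ctsc are shown because both had higher levels in plasma high than in plasma none with no overlap of the 3 TH numbers, and because each window holds the letters GAGGAAGT on the other strand, which fit the binding site of PU.1, an ETS factor of macrophages. Capitals mark the match, as its reverse complement. The Ctss window is chr3:95526536-95526805 and the Ctsc window chr7:88277835-88278104, both on the plus strand.
Ctss: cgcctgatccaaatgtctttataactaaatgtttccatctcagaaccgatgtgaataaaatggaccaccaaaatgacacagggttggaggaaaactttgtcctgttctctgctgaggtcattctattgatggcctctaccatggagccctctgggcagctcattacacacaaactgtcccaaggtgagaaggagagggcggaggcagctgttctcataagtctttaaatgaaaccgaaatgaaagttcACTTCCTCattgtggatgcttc
Ctsc: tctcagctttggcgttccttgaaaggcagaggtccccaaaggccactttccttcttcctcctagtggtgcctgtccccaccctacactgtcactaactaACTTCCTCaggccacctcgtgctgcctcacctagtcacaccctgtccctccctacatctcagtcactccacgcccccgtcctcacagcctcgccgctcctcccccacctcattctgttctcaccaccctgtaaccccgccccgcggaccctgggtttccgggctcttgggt
In Ctss the match begins 2 bases before the start, and in Ctsc it lies further upstream. GAGGAAGT, on either strand, stood in 2.72% of all 32851 windows of this length. The palindrome TCACGTGA is the core of the CLEAR element, to which the lysosomal factor TFEB binds. It was found in the windows of Ctsd and Ctsa, the members outside the cysteine class, and in 0.904% of all windows. Only 30 bases around it are shown, from chr7:142387908-142387937 on the minus strand for Ctsd and chr2:164833757-164833786 on the plus strand for Ctsa.
Ctsd: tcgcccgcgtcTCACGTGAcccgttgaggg
Ctsa: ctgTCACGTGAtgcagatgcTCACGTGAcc
The stretch of Ctsa holds 2 copies, at the second of its 2 listed starts, and that of Ctsd holds 1. The shorter E-box CACGTG, which lies inside TCACGTGA, was also found in the windows of Ctsf and Ctsl and stood in 6.57% of all windows. None of the 3 motifs was found in the windows of Ctso and Ctsz. These are matches of letters, and no binding was measured here.

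Together the 10 cathepsins took 2.78% ± 0.236, 3.06% ± 0.305 and 3.23% ± 0.236 of all reads for plasma none, low and high, with no TMM scaling. On the TMM scale, plasma none summed to 28830, 29224 and 24531 CPM, plasma low to 29787, 35068 and 26663, and plasma high to 33524, 35631 and 29500. Plasma high lay above plasma none within each TH number and above all 3 of its values. The log2 ratio of the summed level was 0.26 ± 0.035 for plasma high against plasma none, 0.14 ± 0.11 for plasma low against plasma none and 0.11 ± 0.079 for plasma high against plasma low. From the plain shares, an alternative chosen after seeing the data, these were 0.21 ± 0.040, 0.14 ± 0.071 and 0.076 ± 0.045. Ctsd supplied 38.9% of the cathepsin reads, Ctss 26.3% and Ctsb 12.05%.

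Levels of different genes were compared per kb of exon, over the 9 sums of cells (3 groups by 3 TH numbers). Ctss stood first at 5874 ± 910 CPM per kb (SD over the 9 sums) and Ctsd second at 5010 ± 579. Their ranges overlapped, though Ctss was above Ctsd in 9 of 9 sums. This order is uncertain, since the gene model Gm49369 shares exons with Ctsd and how shared reads were counted is not known. With Gm49369 reads added over the Ctsd exon length, an alternative chosen after seeing the data, Ctsd had 7453 ± 843 CPM per kb. Ctss was then above it in 0 of 9 sums. If shared reads were counted for both genes, that alternative counts them again. Ctsz followed at 1464 ± 201.9, Ctsb at 603 ± 113.1 and Ctsa at 319.4 ± 61.5, each range clear of the next. Ctsc at 189.1 ± 22.1 overlapped Ctsl at 172.1 ± 21.8, and Ctsl overlapped Ctsh at 125.8 ± 32.3. Ctsf at 54.4 ± 9.17 and Ctso at 44.5 ± 3.14 were lowest and overlapped. The order also depends on the length used. By the principal transcript, an alternative chosen after seeing the data, Ctsc at 440 CPM per kb stood above Ctsa at 413, and Ctsh at 350.03 stood above Ctsl at 181.1.

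**Figure D1:**
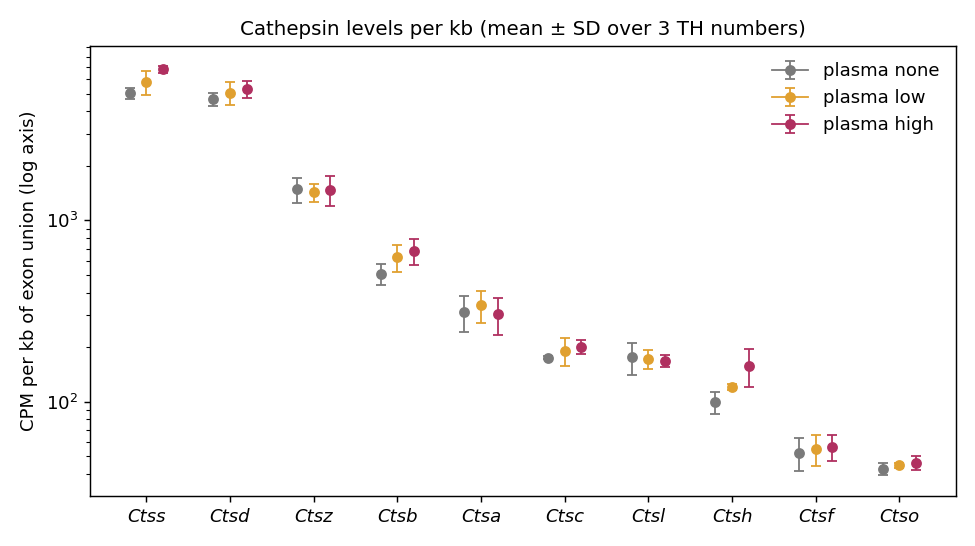
Level of each cathepsin in CPM per kb of exon on a log axis, as mean ± SD over 3 TH numbers for plasma none, plasma low and plasma high. Ctss and Ctsd lie above the other 8 in every group, and Ctsf and Ctso lie lowest.

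Ctsd, the main aspartic protease of the lysosome, lies at chr7:142375911-142388038 on the minus strand (GRCm38). Over TH 1, 2 and 3, plasma none gave 11594, 11273 and 9953 CPM, plasma low 12010, 13535 and 10179, and plasma high 13257, 13349 and 10864. TH 3 was lowest in every group, so the groups overlapped, yet plasma high was above plasma none within each TH number. The log2 ratio was 0.19 ± 0.059 for plasma high against plasma none and 0.12 ± 0.13 for plasma low against plasma none. The second value was 0.042 without TH 2. The gene model Gm49369 runs through Ctsd on the same strand and shares 808 of its 1023 exon bases with it, so reads may have been divided or counted for both, and Ctsd levels are uncertain. Genes on the other strand that overlap a member, such as Pltp at Ctsa and Nelfcd at Ctsz, had at most 31 CPM, and whether counting used strand is not given in the sources used here. Gm49369 averaged 5342 ± 404 CPM for plasma none against 6103 ± 625 for plasma high, a log2 ratio of 0.19 ± 0.054.

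Ctsa is a serine carboxypeptidase that also protects the lysosomal enzymes beta-galactosidase and neuraminidase, and lies at chr2:164832873-164841032. Plasma none gave 1590, 1732 and 1108 CPM, plasma low 1505, 1950 and 1348, and plasma high 1384, 1795 and 1138. The 3 groups overlapped widely. Plasma high against plasma none gave a log2 ratio of -0.037 ± 0.14, with TH 1 lower and the others slightly higher. Against plasma low, plasma high was lower in 3 of 3 TH numbers, at -0.16 ± 0.072. It was -0.083 without the cell that held most Ctsa reads in each sum. Of the 10 members, Ctsa was the only one lower in 3 of 3 in any of the 3 comparisons.

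Ctss, a cysteine protease that stays active outside the acid lysosome and cuts the invariant chain of MHC class II, lies at chr3:95526786-95556403. Over TH 1, 2 and 3, plasma none gave 7072, 7133 and 6276 CPM, plasma low 7292, 9205 and 7097, and plasma high 9501, 9396 and 8820. The lowest value of plasma high exceeded the highest of plasma none, while plasma low overlapped both. Plasma high exceeded plasma none by a log2 ratio of 0.44 ± 0.048, a 1.35-fold difference, and lay between 0.40 and 0.47 under 16 alternatives. Plasma low against plasma none gave 0.20 ± 0.16, with TH 2 the largest, and 0.11 without TH 2. Plasma high against plasma low gave 0.24 ± 0.19, of which TH 2 gave 0.030.

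Ctsb, a cysteine protease with both endopeptidase and carboxypeptidase activity, lies at chr14:63122462-63145923. Plasma none gave 3114, 3448 and 2626 CPM, plasma low 3578, 4522 and 3287, and plasma high 3948, 4820 and 3520. Within each TH number the order was none, low, high, and the values of plasma high were clear of plasma none. Plasma high exceeded plasma none by a log2 ratio of 0.42 ± 0.071, or 1.33-fold. It was 0.31 ± 0.097 for plasma low against plasma none and 0.11 ± 0.027 for plasma high against plasma low. The last value was 0.043 after every cell was thinned to 50000 reads, an alternative chosen after seeing the data, and Ctsb was then no longer higher in 3 of 3 TH numbers.

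Ctsh, an aminopeptidase, lies at chr9:90054152-90076089. Plasma none gave 484.7, 373.4 and 482.1 CPM, plasma low 562.2, 524.3 and 545.2, and plasma high 857.2, 737.6 and 527.2. Both plasma low and plasma high were clear of plasma none. Plasma high against plasma none gave the largest log2 ratio of the members, 0.64 ± 0.45, but TH 3 gave 0.13 against 0.82 and 0.98 in TH 1 and TH 2. In plasma high 1 cell held 8.03% of the Ctsh reads, and without the cell richest in Ctsh in each sum this ratio was 0.56. Plasma low against plasma none gave 0.29 ± 0.17, and plasma high against plasma low 0.35 ± 0.35, with TH 3 at -0.048.

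Ctsc, the dipeptidyl peptidase that activates granule serine proteases in other immune cells, lies at chr7:88278085-88310888. Plasma none gave 1043, 1005 and 1003 CPM, plasma low 1019, 1332 and 976.7, and plasma high 1086, 1281 and 1139. The values of plasma none lay close together and just under the lowest of plasma high. Plasma high exceeded plasma none by a log2 ratio of 0.20 ± 0.15, and 0.12 without TH 2. For plasma low against plasma none it was 0.11 ± 0.26, with TH 2 alone positive, and -0.036 without it.

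The other 4 cysteine cathepsins overlapped between groups in every comparison. Ctsl, a broad endopeptidase at chr13:64359337-64370890, gave 1222, 1323 and 878.5 CPM for plasma none against 1108, 1160 and 1004 for plasma high, a log2 ratio of -0.046 ± 0.21. Ctsz, a carboxypeptidase at chr2:174427493-174439039, gave 2167, 2452 and 1789 CPM for plasma none against 1880, 2607 and 1914 for plasma high, a log2 ratio of -0.0066 ± 0.17. In both genes the TH numbers went in different directions. Plasma high was lower in TH 1 and TH 2 for Ctsl, and in TH 1 alone for Ctsz. Ctsf, a cysteine protease at chr19:4855130-4860918, gave 304.9, 280.8 and 201.5 CPM for plasma none against 245.4, 269.8 and 338.01 for plasma high. Its log2 ratio of 0.12 ± 0.55 had the widest spread of the members, TH 3 alone being positive at 0.74. Ctso, at chr3:81932601-81956725, gave 237.7, 205.02 and 212.9 CPM for plasma none against 257.7, 215.6 and 235.8 for plasma high. Its log2 ratio was 0.11 ± 0.037 with all 3 TH numbers positive, and -0.041 when the outermost wells of the plates were left out.

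Plasma low lay among the values of the other groups in these 4 genes. It gave 1144, 1236 and 974.97 CPM of Ctsl, 2181, 2209 and 1792 of Ctsz, 269.7, 333.4 and 225.5 of Ctsf, and 225.5, 222.8 and 237.5 of Ctso. Against plasma none the log2 ratios were -0.014 ± 0.14 for Ctsl, -0.047 ± 0.090 for Ctsz, 0.077 ± 0.22 for Ctsf and 0.067 ± 0.12 for Ctso, each smaller than its SD. Plasma high against plasma low gave -0.032 ± 0.068, 0.040 ± 0.23, 0.047 ± 0.47 and 0.045 ± 0.13 for the same genes, again each within its SD.

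**Figure D2:**
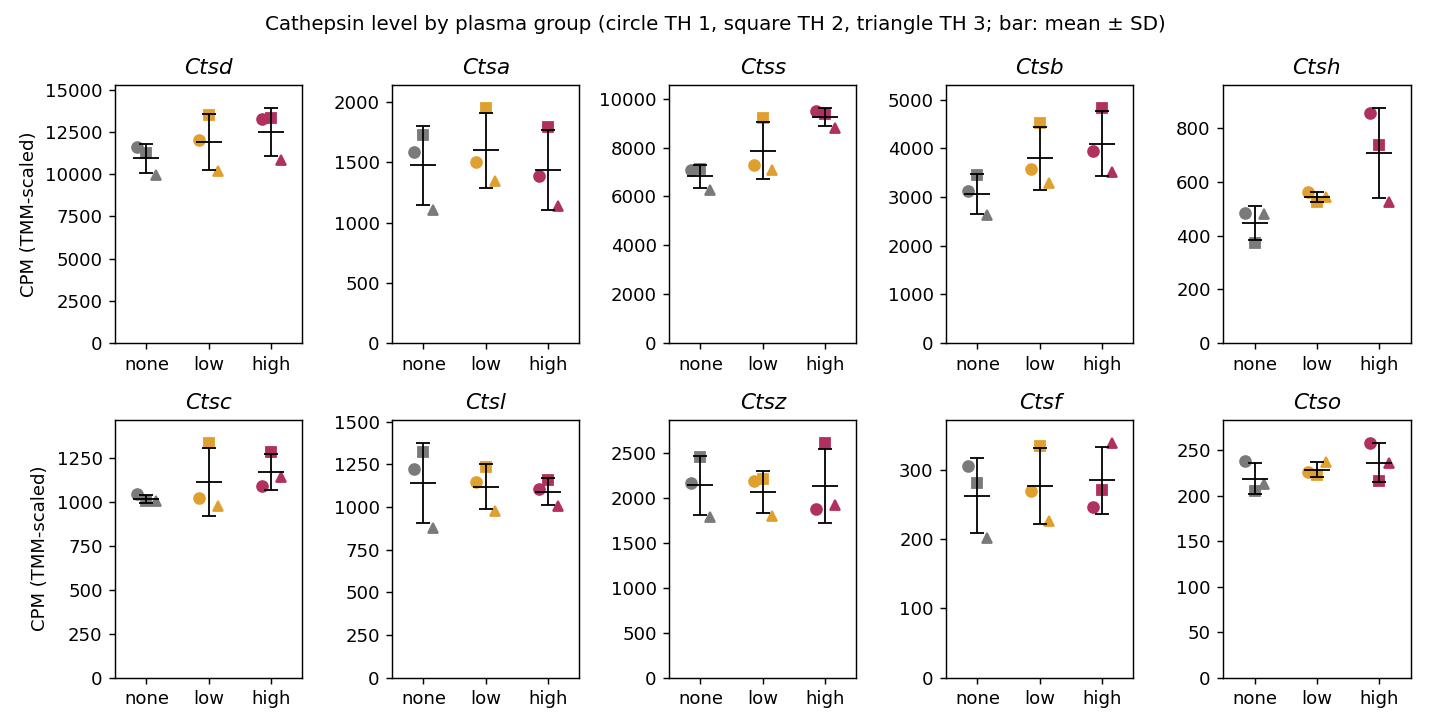
Level of each cathepsin in TMM-scaled CPM for plasma none, low and high, with 1 point per TH number and bars for mean ± SD. In Ctss, Ctsb, Ctsh and Ctsc every point of plasma high lies above every point of plasma none, and in the other 6 the groups overlap.

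No member met the 2-fold size rule (an average log2 difference of 1 or more, either way, with 1 sign in 3 of 3 TH numbers) in any comparison. In plasma high against plasma none 5.24% of 5761 genes met it, in plasma low against plasma none 2.88%, and in plasma high against plasma low 3.21%. For direction alone the members were read against the 791 genes with a mean of at least 200 CPM, the range of the members. In plasma high against plasma none, 6 of 10 members were higher in 3 of 3 TH numbers (Ctsb, Ctsc, Ctsd, Ctsh, Ctso and Ctss), where 25.3% of those genes were. None was lower in 3 of 3, where 19.3% were. In 4 members plasma high was clear of plasma none, where 12% of the genes were. Ctso is the weakest of the 6. It was no longer higher in 3 of 3 with the outermost wells left out, or without each gene's own top cell. The other 5 stayed higher in 3 of 3 TH numbers under 12 of 12 alternatives of scaling, cell filter and summing.

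In plasma low against plasma none, 4 of 10 members were higher in 3 of 3 TH numbers (Ctsb, Ctsd, Ctsh and Ctss), against 18.1% of the 791 genes, and 0 were lower, against 13.8%. Only Ctsh was clear of plasma none, against 4.05% of the genes. Without each gene's own top cell in each sum, Ctsd and Ctss were no longer higher in 3 of 3. In plasma high against plasma low, 2 members were higher (Ctsb and Ctss), against 16.8%, and 1 was lower (Ctsa), against 13.7%. The count of 2 was 7 with the mean of per-cell CPM, 5 without each gene's own top cell and 5 with thinned cells. No member was clear of plasma low, against 5.69%. The order none, low, high held in 3 of 3 TH numbers for Ctsb and Ctss, against 4.8% of the genes.

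The median log2 ratio of the 10 members was 0.16 for plasma high against plasma none, beside 0.037 over the 791 genes and 0.049 over the 5761. It was 0.11 for plasma low against plasma none, beside 0.026 and 0.046, and 0.060 for plasma high against plasma low, beside 0.015 and 0.0035. An alternative left out, for each gene, its own top cell in each sum, which can be a different cell for each gene. The median for plasma low against plasma none was then 0.029, beside 0.013 over the 5761 genes. That for plasma high against plasma low was 0.13, beside 0.026. The comparisons share groups and are not independent. Depth and mitochondrial share also differed between the groups. An alternative chosen after seeing the data thinned every cell to 50000 reads, which gives each cell equal weight in its sum. Plasma high against plasma none then gave 0.47 for Ctss, 0.43 for Ctsb, 0.59 for Ctsh, 0.18 for Ctsc and 0.18 for Ctsd. With the mean of per-cell CPM these were 0.47, 0.43, 0.57, 0.18 and 0.17. The sums were already scaled to CPM, so thinning cannot separate depth from other differences between the cells of the groups. The part of depth and of the mitochondrial share in these ratios was not tested.

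**Figure D3:**
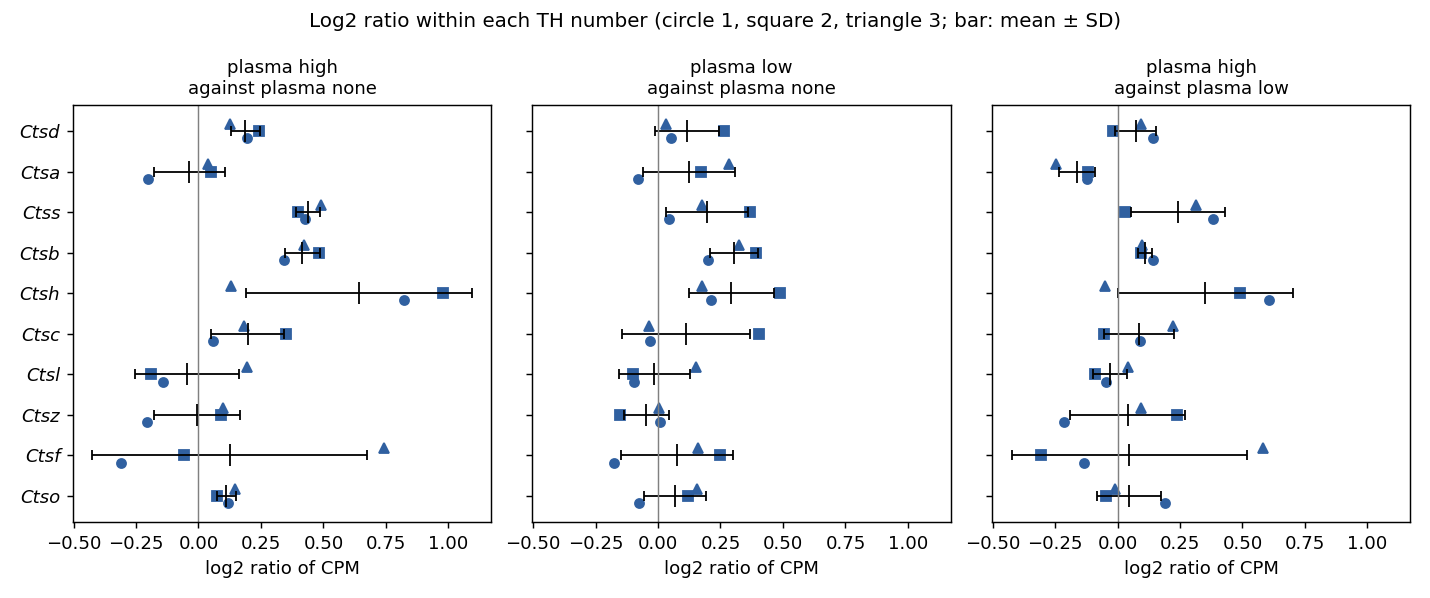
Log2 ratio of CPM for each cathepsin in the 3 comparisons, with 1 point per TH number and bars for mean ± SD. In plasma high against plasma none the points of Ctss, Ctsb, Ctsd and Ctso lie close together above 0, those of Ctsh spread from 0.13 to 0.98, and those of Ctsf fall on both sides of 0.

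Among single cells the members split by how many cells held a read. Ctss was read in 100% of cells in every group and Ctsd in 99.7% to 100%. Ctsb, Ctsz, Ctsa and Ctsh were read in over 90% of cells of every group. Ctsc was read in 75.7% of cells of plasma none (exact Clopper-Pearson interval 70.9 to 80.1), 82.9% of plasma low (78.6 to 86.7) and 83.1% of plasma high (78.3 to 87.2). Ctsl was read in 84.7%, 87.5% and 91% of cells. Ctsf was read in 44.2% (38.9 to 49.6), 53.3% (47.9 to 58.6) and 51.03% (45.1 to 56.9), and Ctso in 28.03% (23.4 to 33.1), 36.5% (31.4 to 41.7) and 33.8% (28.4 to 39.6). The intervals cover counting error only, at a 95% level. With every cell thinned to 50000 reads, Ctso was read in 26.6%, 33.3% and 32.4% of cells and Ctsc in 73.99%, 82.1% and 81.03%, so plasma none stayed lowest in these shares over all TH numbers, while plasma low and plasma high changed places for Ctsc. By TH number and unthinned, Ctsc was read in 75.2% to 76.7% of cells of plasma none and in 79.3% or more of the others. For Ctso the TH numbers differed, since in TH 3 plasma high at 27.96% lay below plasma none at 30.8%.

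The level per cell, in plain CPM of that cell, showed which part of the cells differed. For Ctss the lower quartile, median and upper quartile were 4412, 6364 and 8615 (plasma none), 5576, 7516 and 9835 (plasma low), and 6151, 8495 and 11495 (plasma high), so all 3 quartiles were higher. The median of Ctss in plasma high was 8497, 8472 and 8496 in the 3 TH numbers, against 6558, 6538 and 6017 in plasma none. For Ctsb the median was 2805, 3384 and 3330, so plasma low and plasma high were close at the median, while the upper quartile was 3988, 4694 and 5028. For Ctsh the lower quartile was 93.5, 149.7 and 225.9 and the median 277.5, 373.8 and 486.1. The median of Ctsh in TH 3 was 278.5 in plasma none and 443 in plasma high, a wider gap than that of the summed reads there. Ctso had a median of 0 in every group, and its 90th percentile over all cells was 967, 824 and 947 CPM in the order none, low, high.

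**Figure D4:**
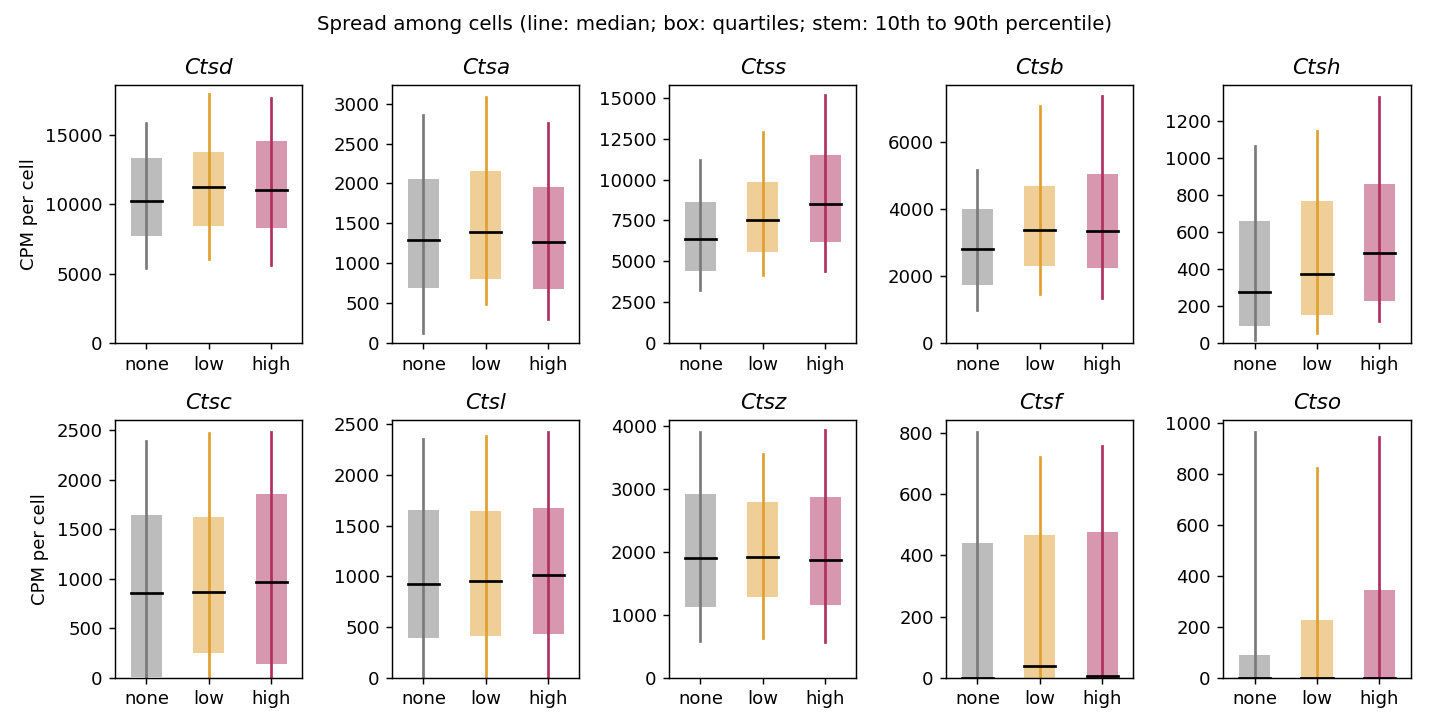
CPM per cell of each cathepsin in plasma none, low and high, with the median as a line, quartiles as a box and the 10th to 90th percentile as a stem. The boxes of Ctss and Ctsh shift upward from none to high, those of Ctsz and Ctsa do not, and those of Ctsf and Ctso start at 0.

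Across the 987 cells, after centring log2(CPM + 1) within each group and TH number, the 45 pairs of members had Spearman correlations from -0.066 (Ctsd with Ctsh) to 0.28 (Ctsa with Ctsd), with a median of 0.056. Ctsd with Ctsb gave 0.27, Ctsd with Ctsz 0.25, Ctsb with Ctsz 0.24 and Ctsb with Ctss 0.22. The higher values lay among the abundant members. Depth differed from cell to cell, and the correlation of each member with reads per cell ran from -0.044 (Ctss) to 0.16 (Ctsd). In sparse counts such weak values are a description only. Of 781 other genes with at least 200 CPM, the 5 most like the mean of the members were Gm49369 at 0.25, which shares exons with Ctsd, Grn at 0.17, Unc93b1 at 0.17, Cd81 at 0.17 and C1qa at 0.16. The median over those genes was 0.035.

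**Figure D5:**
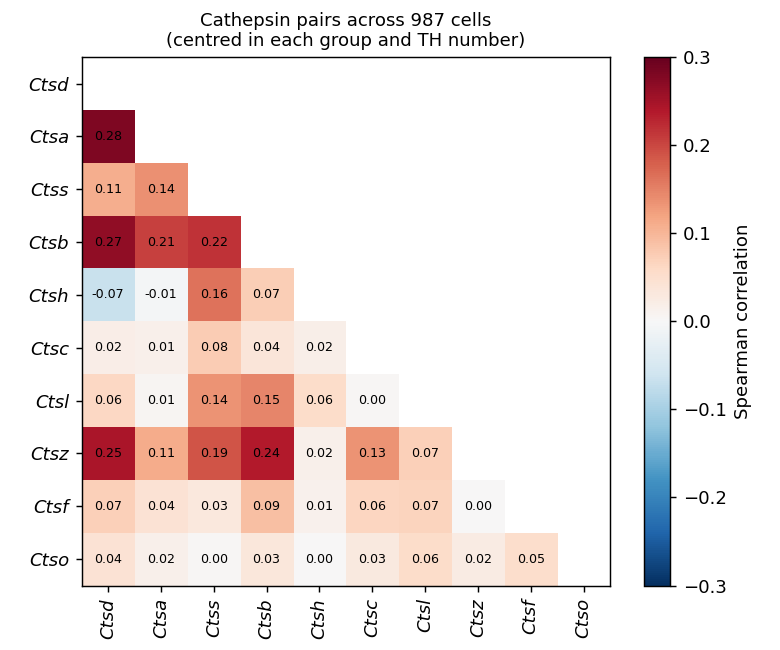
Spearman correlation of each pair of cathepsins across 987 cells, after centring within group and TH number. The highest pairs are those of Ctsd with Ctsa, Ctsb and Ctsz, up to 0.28, and most pairs with Ctsf, Ctso or Ctsh lie near 0.

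The other genes of the cathepsin pathway were given by role, and 20 of 31 had at least 20 CPM. Of these 20, 4 were higher and 4 lower in 3 of 3 TH numbers in plasma high against plasma none, beside 17.2% and 13.9% of the 6951 genes with that level. Among inhibitors, Cst3, the secreted cystatin C that blocks cysteine cathepsins, gave 23989, 16260 and 18968 CPM for plasma none against 28582, 21748 and 23667 for plasma high. It was higher within each TH number, with a log2 ratio of 0.33 ± 0.084, and was read in all 987 cells. Cstb, the cytosolic cystatin, averaged 34.1 ± 8.85 CPM for plasma none against 28.5 ± 19.4 for plasma high, a log2 ratio of -0.41 ± 0.54. Cst7, cystatin F, was read in 25 cells in all. It gave 0, 3.81 and 1.16 CPM for plasma none against 2.5, 17.8 and 21.6 for plasma high.

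Of the 4 other lysosomal peptidases counted, 0 were higher in 3 of 3 TH numbers and 1 was lower. Lgmn, the legumain that also processes cathepsin precursors, averaged 6670 ± 698 CPM for plasma none against 6720 ± 917 for plasma high, a log2 ratio of 0.0075 ± 0.077. Scpep1, a serine carboxypeptidase, had 168.8 ± 17.2 and 126.6 ± 19.6 CPM and was lower in 3 of 3, at -0.42 ± 0.21. Dpp7 had the largest ratio of this role, 0.49 ± 0.79, with signs that differed.

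Of the 6 genes for sorting to the lysosome, 2 were higher in 3 of 3 and 1 was lower. Gga1, an adaptor that carries mannose 6-phosphate receptors, was higher at 0.69 ± 0.68, and Gga2, an adaptor of the same family read in 48 cells, was lower at -1.49 ± 0.18. Of 5 partners and cofactors, 1 was higher and 2 were lower. Psap, the precursor of the saposins, gave 747, 830 and 633 CPM for plasma none against 1048, 1386 and 1111 for plasma high, values that did not overlap, with a log2 ratio of 0.68 ± 0.17. Neu1, the neuraminidase that Ctsa protects, gave 73.8, 128.1 and 87.1 CPM for plasma none against 54.4, 25.2 and 40.2 for plasma high, a log2 ratio of -1.28 ± 0.95. Of 3 transcription factors of lysosomal genes counted, 0 were higher and 0 lower in 3 of 3. Tfeb had the largest ratio at 0.13 ± 0.93 and Mitf the lowest at -0.24 ± 1.36.

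Among the 13 other cathepsin genes, Ctse, an aspartic protease, was read in 13 cells with 0.525 CPM on average, Ctsw in 1 cell, and the other 11, Ctsk and Ctsg among them, had no read in any of the 987 cells. For a gene with no read this allows a level of up to 3 reads in all.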

How the data were processed

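Single microglia were profiled with Smart-seq2. The deposited tables give, per the file headers, 1 column per cell headed as a mean over the probes of a gene, with 1 table per TH number. The deposited values were whole-number counts in all columns but 1, and those of that column were taken for estimated counts and rounded. Columns for TH 2 and TH 3 came from alignments reduced to top hits, per the file headers, and those for TH 1 carry no such note. STAR 2.5.3a, Trim Galore, bcl2fastq, Seurat and mm10 are named in the submitters' processing notes. How reads were counted, and whether by strand, is not given in the sources used here. Well and TH number tied 1045 of the 1111 labels to a column, and the remaining 66 cells were not analysed here. Another 1045 columns, of SD over probes, were not used.

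Cells with at least 50000 reads and 500 genes were summed by group and TH number into 9 sums, scaled to CPM by TMM (edgeR 4.0.16 in R 4.3.3, with DESeq2 1.42.0 size factors as an alternative). Log2 ratios used a pseudocount of 1 CPM, were taken within each TH number and averaged. Genes entered the 2-fold rule with a mean of at least 20 CPM and reads in 10% or more of any group's cells. Exon lengths came from GENCODE M21 (GRCm38), which holds 35546 of the 35583 IDs. All 10 members are named, as are, of each pathway role, the largest ratios in either direction among genes of at least 20 CPM, 5 fixed genes and the 5 genes most like the members. The members and lists were chosen with earlier results of these data known. The ratio code was tested on simulated data.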

Additional observations from a re-analysis of the deposited data

How the results depend on the processing

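No paired analysis was possible because no result comes from a test, so there is no fit to which a block could be added. The ratios themselves were taken within TH numbers. The count of members higher in 3 of 3 TH numbers was 5 to 6 in plasma high against plasma none under 12 alternatives. In plasma low against plasma none it went from 4 to 2 without each gene's own top cell in each sum, which can differ from gene to gene. In plasma high against plasma low it went from 2 to 7 with the mean of per-cell CPM, and to 5 without those top cells. It was also 5 with cells thinned to 50000 reads (chosen after seeing the data). The causes were not tested. With each TH number left out in turn, and 2 of 2 asked for, the counts ran from 6 to 8, 4 to 7 and 3 to 4 for the comparisons in the order high against none, low against none and high against low. The median log2 ratio then ran from 0.15 to 0.23, 0.041 to 0.19 and 0.040 to 0.12. Under the other alternatives it ran from 0.11 to 0.18, 0.029 to 0.18 and 0.023 to 0.13. Of ratios with 1 sign in 3 of 3 TH numbers, only that of Ctso in plasma high against plasma none changed sign, to -0.041 without the outermost wells. Of 480 ratios of single members under alternatives, 465 moved by less than 1 SD and 14 by more, with this Ctso ratio, which also moved by more, counted apart. Ratios whose TH numbers differed in sign crossed 0 as well. In plasma high against plasma none, Ctsl ran from -0.17 to 0.13, Ctsf from -0.18 to 0.34, Ctsa from -0.081 to 0.045 and Ctsz from -0.058 to 0.093. Such crossings were also seen in the other comparisons. Genes of plasma high against plasma none that met the 2-fold rule were 7.97% with no filter on low counts and 0.885% at 200 CPM or more. In plasma low against plasma none these were 6.21% and 0.126%, and in plasma high against plasma low 6.52% and 0.126%. The shares of cells moved by less than 1 SD or stayed within their counting interval when thinned.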
